A study of Mus musculus with 12 samples.

Results

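Vasopressin, oxytocin and 3 genes that work beside them in the large neurosecretory neurons of the hypothalamus were followed across 12 mouse libraries: Avp, Oxt, Pdyn, Gal and Creb3l1. They were chosen by symbol, taking for each gene the row of highest mean, and they are 5 of the 23256 genes in the expression table. All 5 are among the 13273 genes that averaged 1 RPKM or more and were tested (RPKM is the number of reads scaled to transcript length and to the mapped reads of the library). Each of the 5 had a single row in the table.

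The tissue was the paraventricular nucleus of adult male mice aged 18 to 20 weeks that had been injected as zygotes. In the miR group, 6 males came from zygotes given a mixture of 9 microRNA mimics (miR-698, miR-532-3p, miR-375, miR-204, miR-193-5p, miR-32, miR-30c, miR-30a and miR-29c) at 1 ng/uL in total, 0.11 ng/uL each, in DPBS, a phosphate-buffered saline. In the PBS group, 6 males came from zygotes given DPBS alone. All zygotes were C57/Bl6:129S6/SvEvTac hybrids, all were carried by CD1 foster dams, and the males were housed in groups. Each library was made from punches of 1.0 mm in 2 successive slices, which also held neighbouring tissue and cells other than neurons. The study called the 6 males of a group biological replicates, and the labels used here do not say which of them shared a litter or a dam, so the p-values measure the spread between these libraries.

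Magnocellular neurons of the paraventricular and supraoptic nuclei make vasopressin or oxytocin as large precursors, package them in dense-core granules and release them from axons in the posterior pituitary. Vasopressin retains water and constricts vessels, and oxytocin drives milk ejection and labour; smaller paraventricular neurons that project within the brain also make both. Vasopressin neurons commonly make dynorphin and galanin as well, and their vasopressin gene is a known target of the transcription factor CREB3L1, which is cut from the membrane of the endoplasmic reticulum before it enters the nucleus.

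In the mm9 coordinates of the table, 4 of the 5 genes lie on chromosome 2. Oxt (chr2:130401909-130402724, plus strand) and Avp (chr2:130406413-130408277, minus strand) are neighbours that face each other tail to tail, with 3688 bases between them. Pdyn lies at chr2:129513737-129515604 and Creb3l1 at chr2:91822485-91864327, both on the minus strand. Gal lies at chr19:3409917-3414457, also on the minus strand.

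The sequences in front of Oxt and Avp are shown because these were the most abundant pair and their levels moved together over the libraries. Each is the 250 bases before the RefSeq start of transcription in GRCm38.p6, written 5′ to 3′ on the gene's own strand; Oxt covers chr2:130575919-130576168 on the plus strand and Avp chr2:130582589-130582838 on the minus strand. Capitals mark matches to CACGTG (the palindromic E-box core), to TGACC (a nuclear receptor half-site, GGTCA on the other strand) and to CATAAA (resembling a TATA box, and chosen after the promoters had been read).
Oxt: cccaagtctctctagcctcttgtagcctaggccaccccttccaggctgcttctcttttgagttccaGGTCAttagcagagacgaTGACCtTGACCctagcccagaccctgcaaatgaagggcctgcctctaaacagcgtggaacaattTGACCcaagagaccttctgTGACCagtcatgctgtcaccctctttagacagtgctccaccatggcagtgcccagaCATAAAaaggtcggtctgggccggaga
Avp: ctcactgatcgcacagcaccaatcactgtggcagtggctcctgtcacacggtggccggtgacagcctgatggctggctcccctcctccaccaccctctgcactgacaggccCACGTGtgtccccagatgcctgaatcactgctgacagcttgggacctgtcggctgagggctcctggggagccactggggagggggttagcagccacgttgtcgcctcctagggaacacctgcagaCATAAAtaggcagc
The Oxt sequence held 5 copies of TGACC, at -184, -166, -160, -102 and -83 from the start, the first of them on the opposite strand. Of 32851 RefSeq promoters of the same length, 35.2% held at least 1 copy on either strand and 0.0426% held at least 5. The Avp sequence held no copy of TGACC and 1 CACGTG, at -139, a string that 6.02% of the promoters held. Both held CATAAA, at -27 in Oxt and at -14 in Avp, and 10.8% of all promoters did on either strand. TGACGT, the core of the cAMP response element, was searched on both strands too: it was in neither sequence and in 6.47% of all promoters. The marked matches did not overlap one another, and they are strings found in these windows, not measured binding sites.

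The Avp and Oxt transcripts also share sequence, which bears on how reads could be assigned between them. A run of 127 bases was identical in the annotated GRCm38 transcripts, from base 144 of the Avp transcript and base 156 of the Oxt transcript, inside the coding sequence of both, in the part that encodes neurophysin, the carrier protein of each hormone.
Shared run: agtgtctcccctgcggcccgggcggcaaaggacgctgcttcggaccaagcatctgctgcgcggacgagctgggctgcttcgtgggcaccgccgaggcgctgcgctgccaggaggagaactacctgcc
Of all 50-base windows, 78 of 528 (14.8%) in Avp and 78 of 488 (16.0%) in Oxt were found in the other transcript. No source used here gives the read length or the treatment of reads with several matches, and their part in the Avp and Oxt values was not tested.

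Oxytocin mRNA was the most abundant message in these punches, with a mean of 2675 RPKM over the 12 libraries that ranked 1st among all genes. Vasopressin mRNA followed at 919 RPKM, ranking 6th. Prodynorphin mRNA (28.9 RPKM, 2193rd) and galanin mRNA (28.8 RPKM, 2200th) lay far lower and next to each other, and Creb3l1 was the lowest at 2.42 RPKM (11406th). This order is of levels per transcript length. Oxt exceeded Avp in 12 of 12 libraries, by 1.64-fold to 4.46-fold (median 3.07), and Avp exceeded Pdyn in all 12, by 13.0-fold to 50.8-fold. Pdyn and Gal were not separated: Pdyn was the higher in 8 of 12 libraries, with Pdyn/Gal ratios from 0.289 to 3.23. Gal exceeded Creb3l1 in 12 of 12 libraries, by 6.87-fold to 22.1-fold.

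**Figure D1:**
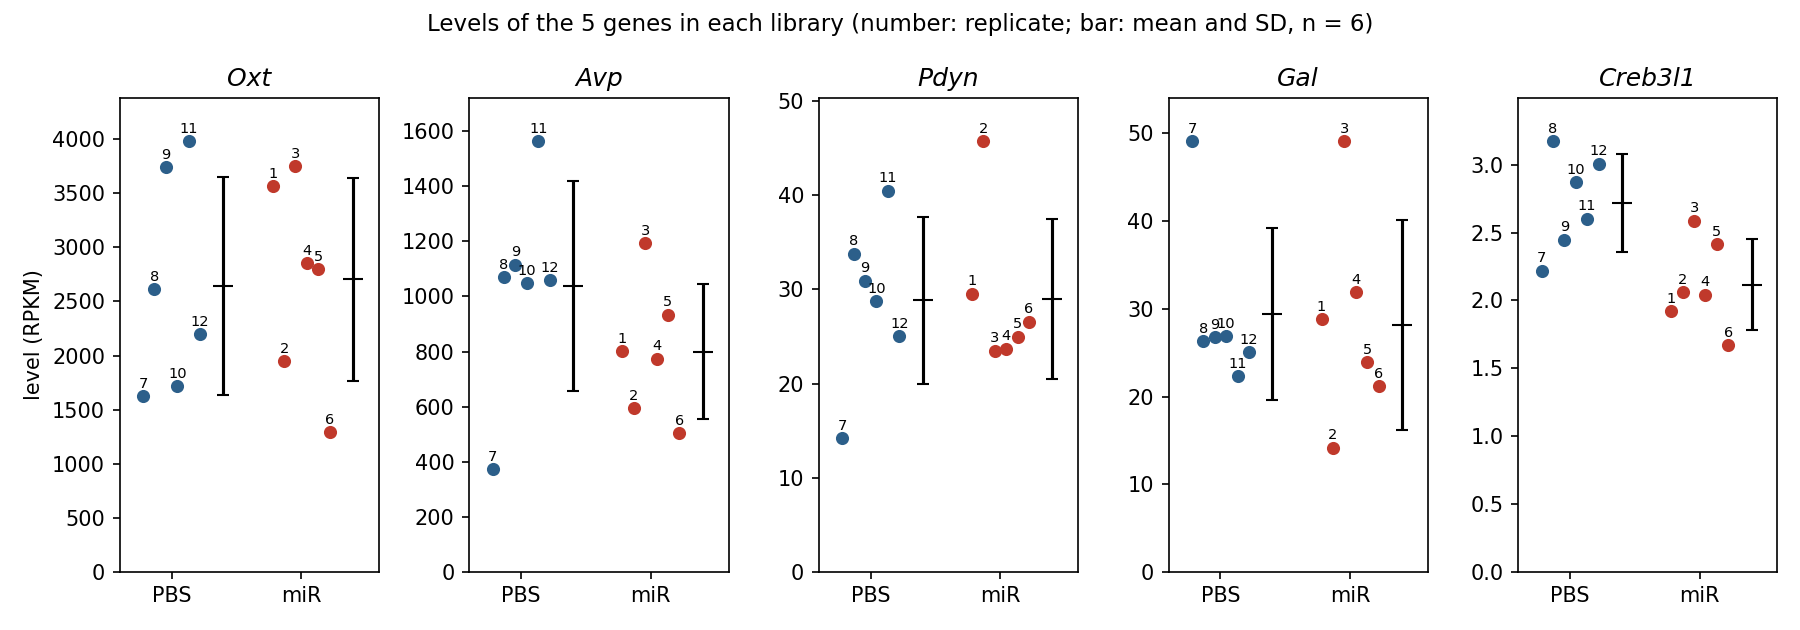
Level of each gene in each library, in RPKM on linear axes that start at 0, with the 6 PBS libraries (blue) and 6 miR libraries (red) as points labelled by replicate number, and beside them the group mean (tick) with its SD (bar). The groups overlap in all 5 panels, and PBS replicate 7 has the lowest Avp (372) and the highest Gal (49.12).

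Vasopressin mRNA varied 4.21-fold between the lowest and the highest library. In the miR libraries 1 to 6 Avp was at 801, 595, 1193, 774, 934 and 505 RPKM (mean 800 ± 246, SD, n = 6). In the PBS libraries 7 to 12 it was at 372, 1071, 1116, 1048, 1564 and 1060 RPKM (mean 1039 ± 382, SD, n = 6). The PBS group held both the lowest and the highest library of all 12, with its other 4 libraries close together, and 5 of 6 miR libraries lay below the PBS median. The limma difference of miR minus PBS, on log2(RPKM + 0.5), was -0.32 (SE 0.29, 95% interval -0.93 to 0.30), which did not exceed the spread between libraries (adjusted p = 0.530; exact permutation p = 0.379, two-sided). Without PBS replicate 7 it was -0.59 (limma adjusted p = 0.0716). Without PBS replicates 8, 9, 10 and 12, which left only 2 PBS libraries, it was 0.01 (SE 0.46).

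Oxytocin mRNA varied 3.08-fold. The miR libraries 1 to 6 were at 3569, 1949, 3752, 2855, 2801 and 1295 RPKM (mean 2703 ± 942, SD, n = 6). The PBS libraries 7 to 12 were at 1626, 2613, 3740, 1714, 3983 and 2197 RPKM (mean 2646 ± 1010, SD, n = 6). Both groups ran over nearly the same range. The limma log2 difference was 0.03 (SE 0.28, 95% interval -0.57 to 0.63, adjusted p = 0.958; exact permutation p = 0.942), and its sign was not stable when single libraries were left out.

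Pdyn encodes prodynorphin, the precursor of the dynorphin opioid peptides, which act back on the neurons that release them through the kappa receptor. In the miR libraries 1 to 6 it was at 29.5, 45.8, 23.5, 23.7, 25.0 and 26.6 RPKM (mean 29.0 ± 8.50, SD, n = 6). In the PBS libraries 7 to 12 it was at 14.2, 33.8, 30.9, 28.7, 40.5 and 25.0 RPKM (mean 28.9 ± 8.88, SD, n = 6). The highest library, miR replicate 2, stood well above the rest of its group, and the lowest, PBS replicate 7, well below the rest of its own. The limma log2 difference was 0.03 (SE 0.22, 95% interval -0.43 to 0.50, adjusted p = 0.941; exact permutation p = 0.911). It was -0.10 without miR replicate 2 and -0.15 without PBS replicate 7.

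Gal encodes the precursor of galanin, a peptide that vasopressin neurons make and that many other hypothalamic neurons make as well. In the miR libraries 1 to 6 it was at 28.9, 14.2, 49.11, 31.9, 24.0 and 21.1 RPKM (mean 28.2 ± 12.0, SD, n = 6). In the PBS libraries 7 to 12 it was at 49.12, 26.3, 26.8, 26.9, 22.3 and 25.1 RPKM (mean 29.4 ± 9.80, SD, n = 6). The other 5 PBS libraries lay between 22.3 and 26.9, so replicate 7 alone set the spread of that group, while miR replicate 3 reached the same level. The limma log2 difference was -0.11 (SE 0.25, 95% interval -0.64 to 0.42, adjusted p = 0.813; exact permutation p = 0.745). It was 0.06 without miR replicate 2, 0.05 without PBS replicate 7 and -0.29 without miR replicate 3 (limma adjusted p = 0.407).

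Creb3l1 had the smallest p of the 5 between the groups, at a low level. The miR libraries 1 to 6 were at 1.92, 2.06, 2.59, 2.04, 2.41 and 1.67 RPKM (mean 2.12 ± 0.333, SD, n = 6). The PBS libraries 7 to 12 were at 2.22, 3.17, 2.45, 2.87, 2.60 and 3.01 RPKM (mean 2.72 ± 0.361, SD, n = 6). The PBS median exceeded all 6 miR libraries, 4 of which lay below every PBS library, and 4 PBS libraries lay above every miR library, yet the ranges overlapped. The limma log2 difference was -0.30 (SE 0.0973, 95% interval -0.51 to -0.09, a fold of 0.811), with an unadjusted p of 0.00776 and an exact permutation p of 0.0130. Adjusted over the 13273 genes the limma p was 0.174, so Creb3l1 was not called. At its level a library held about 99.1 to 285 reads for this gene, against 5923 to 27542 for Avp, as estimated from the steps of the lowest values in the table.

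The Creb3l1 result turned on which PBS libraries entered. The limma adjusted p was 0.0466 without PBS replicate 7 (log2 difference -0.35), 0.0226 without PBS replicates 7 and 11 (-0.37) and 0.00757 with library weights (-0.42). Of all 13273 tested genes, 909, 3107 and 3025 were called in these settings, in the same order, so passing there was not particular to Creb3l1. Without PBS replicates 8, 9, 10 and 12, which left only 2 PBS libraries, the difference was -0.16 (adjusted p = 1.0). Those 4 PBS libraries carried 158 to 316 RPKM of Meg3, a long nuclear RNA, against 49.9 to 68.1 in the other 8 libraries. Over the 12 libraries Creb3l1 followed Meg3 with r = 0.60 and Leng8, another transcript high in the same 4, with r = 0.70. The level of 6 transcripts (Meg3, Miat, Snhg11, Malat1, Leng8 and Snrnp70) was then used as a covariate. With it the Creb3l1 difference was -0.23 (limma adjusted p = 1.0) and that of Avp 0.01. All 6 of these transcripts were lower in the miR group (median log2 difference -1.18), each with an unadjusted limma p under 0.05 and none past the adjusted threshold. The high levels of Meg3 and Leng8 were in PBS libraries only, so this covariate overlaps the group and the fit cannot tell them apart. With it the SE of the difference rose from 0.0973 to 0.134 for Creb3l1 and from 0.29 to 0.39 for Avp. The part of these transcripts in the Creb3l1 and Avp differences was not tested.

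None of the 5 genes was called at a limma adjusted p under 0.05, and neither was any other tested gene (0.0% called). At an unadjusted p under 0.05, 1 of the 5 passed, beside 20.2% of all tested genes in either direction and 11.1% in the lower direction. The 6 miR and 6 PBS libraries overlapped for all 5, and did not overlap for 0.482% of all tested genes. In a bulk punch, fewer neurons of a type and less RNA per neuron cannot be told apart.

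**Figure D2:**
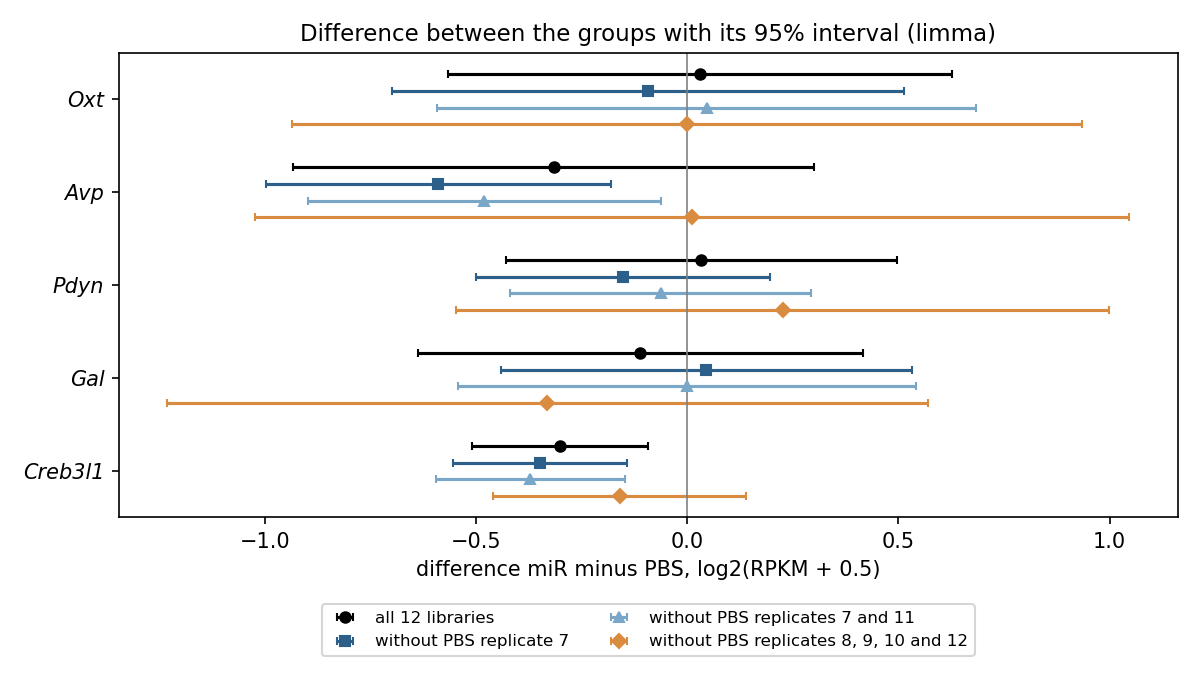
Difference of miR minus PBS for each gene on log2(RPKM + 0.5) by limma, with its 95% interval before adjustment over genes, for all 12 libraries and with the named PBS libraries left out. Over all 12 the intervals of Avp, Oxt, Pdyn and Gal include 0 and that of Creb3l1 (-0.51 to -0.09) does not. Without PBS replicates 8, 9, 10 and 12, which left only 2 PBS libraries, all 5 include 0.

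The peptide genes belonged to the most variable messages of the tissue. The SD of log2(RPKM + 0.5) over the 12 libraries was 0.585 for Avp, 0.54 for Oxt, 0.483 for Gal and 0.421 for Pdyn, against a median of 0.133 over all tested genes. Of those genes 98.6% varied less than Avp and 97.0% less than Pdyn. Creb3l1 had an SD of 0.229, above 86.1% of the genes.

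The 5 genes formed 10 pairs, whose correlations over the 12 libraries were tested with 100000 permutations and adjusted over the 10 (Benjamini-Hochberg). Only Avp with Oxt and Pdyn with Gal passed by Pearson's r, and neither passed by Spearman's rho. Both rested in part on a few libraries.

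Vasopressin and oxytocin messages were correlated across animals. The correlation of Avp with Oxt was r = 0.72 (permutation p = 0.00824, adjusted p = 0.0412) and rho = 0.755 (permutation p = 0.006, adjusted p = 0.06). It was 0.89 in the miR libraries (exact p = 0.0139) and 0.70 in the PBS libraries (exact p = 0.0292). Without the 2 libraries farthest from the median of Avp, PBS replicate 7 and miR replicate 6, r was 0.46 (permutation p = 0.179) and rho 0.588 over the 10 that remained, whose range of Avp is narrower by construction. The pair was thus not past the threshold without them, with r still positive.

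The ratio of the 2 hormone messages was compared within libraries. Oxt/Avp ran from 2.56 to 4.46 in the miR libraries and from 1.64 to 4.37 in the PBS libraries. On the log2 scale Avp over Oxt was -1.72 ± 0.27 (SD, n = 6) in miR and -1.38 ± 0.50 (SD, n = 6) in PBS, a difference of -0.35 (exact permutation p = 0.167). None of the 10 ratios among the 5 genes passed the threshold between the groups, with a smallest adjusted p of 0.763 by exact permutation. Avp over Gal went from -0.21 over all 12 libraries to -0.63 without PBS replicate 7 (exact permutation p = 0.022, adjusted p = 0.173). Avp over Oxt was then -0.50 (exact permutation p = 0.0346, adjusted p = 0.173), so neither passed after adjustment.

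Prodynorphin and galanin messages were inversely correlated. Over the 12 libraries r was -0.80 (permutation p = 0.00282, adjusted p = 0.0282) and rho -0.657 (permutation p = 0.0231, adjusted p = 0.0769). In the miR libraries r was -0.79 (exact p = 0.0708) and in the PBS libraries -0.93 (exact p = 0.0264). PBS replicate 7 had the lowest Pdyn and the highest Gal of all, and miR replicate 2 the highest Pdyn and the lowest Gal. Without this pair of libraries, which also narrows the range, r was -0.47 (permutation p = 0.170), again short of the threshold with the same sign.

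Avp followed Creb3l1 with r = 0.66 (permutation p = 0.0191, adjusted p = 0.0637) and rho = 0.713 (permutation p = 0.0121, adjusted p = 0.0605). Within the groups r was 0.89 in miR (exact p = 0.0278) and 0.56 in PBS (exact p = 0.232). Without PBS replicate 7 and miR replicate 6, r was 0.65 (permutation p = 0.0413). This pair missed the threshold over all 12 libraries. It passed on residuals from the group means (r = 0.67, adjusted permutation p = 0.0430) and without PBS replicates 7 and 11 (r = 0.84, adjusted permutation p = 0.0212). With the level of Sim1 and Otp, regulators of these neurons, subtracted from both genes, a step that can itself change r, it was 0.48 (adjusted permutation p = 0.289). Oxt followed Creb3l1 with r = 0.25 (permutation p = 0.441), and the difference between these correlations was not tested. Of the other tested genes, 13.45% had a larger absolute r with Creb3l1 than Avp had. With Avp, 3.24% had a larger absolute r than Creb3l1 had.

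Dynorphin and galanin messages were each set against vasopressin within the groups. Avp with Pdyn gave r = 0.96 (exact p = 0.0111) in PBS and -0.52 (exact p = 0.326) in miR, and 0.475 over all 12 (permutation p = 0.119). Avp with Gal gave -0.99 (exact p = 0.0194) in PBS and 0.79 (exact p = 0.0611) in miR, and -0.07 over all 12 (permutation p = 0.822). The difference between the groups in these correlations was not tested, and PBS replicate 7, at the end of all 3 ranges, carries much weight in the PBS values. Without it, r over the other 11 libraries was 0.03 for Avp with Pdyn and 0.44 for Avp with Gal. These 2 values pool the miR libraries with the remaining PBS libraries, and the groups differed in sign. They do not show r within the PBS group without replicate 7, which was not computed. Without miR replicate 2, r for Avp with Pdyn was 0.77, past the threshold (adjusted permutation p = 0.0475). The remaining pairs lay between r = 0.10 and 0.28.

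**Figure D3:**
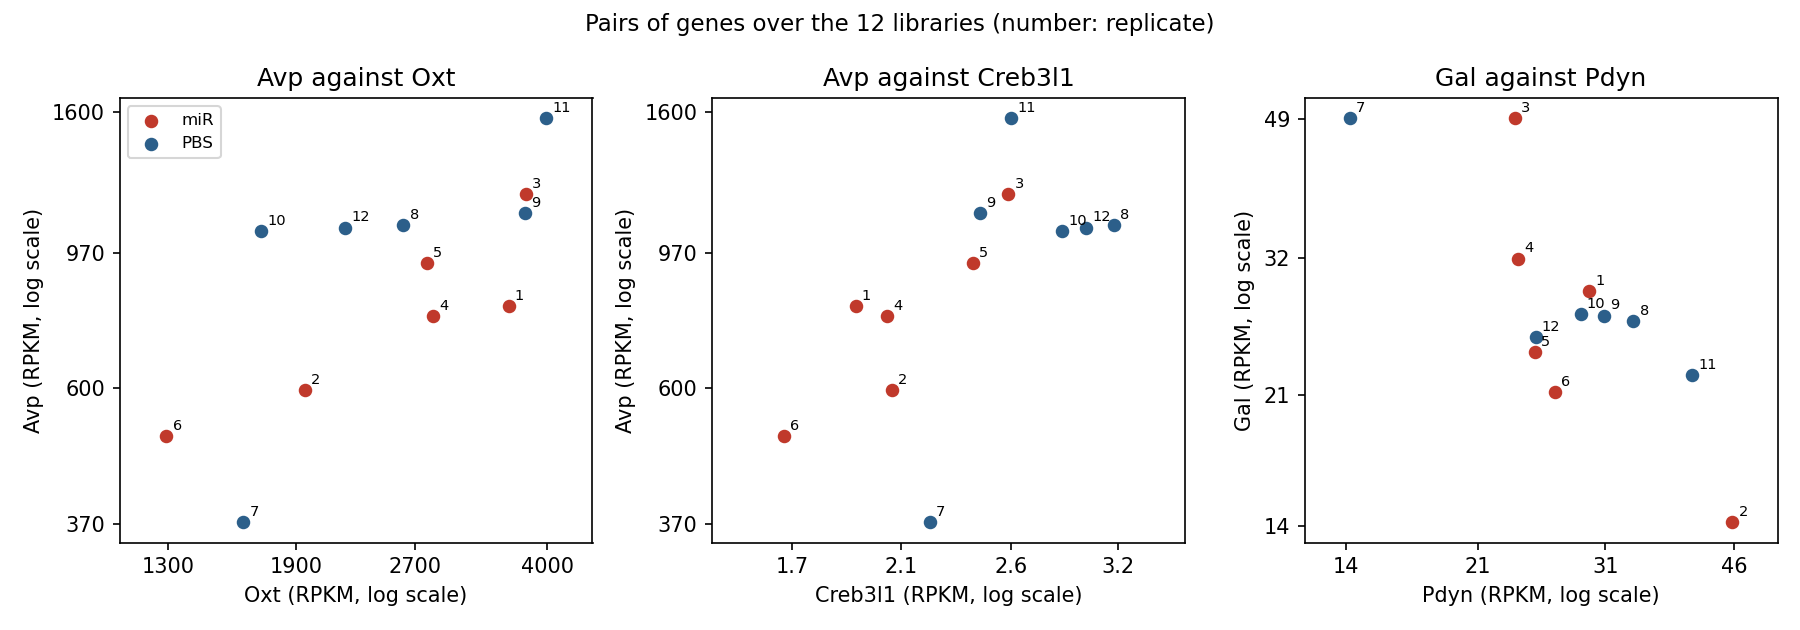
Scatter of 3 pairs of genes in RPKM on log axes: Avp against Oxt, Avp against Creb3l1 and Gal against Pdyn, each point a library labelled by replicate number (miR red, PBS blue). Avp is higher where Oxt is higher (r = 0.72), Gal is lower where Pdyn is higher (r = -0.80), and PBS replicate 7 sits at an end of the Avp, Pdyn and Gal axes.

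**Figure D4:**
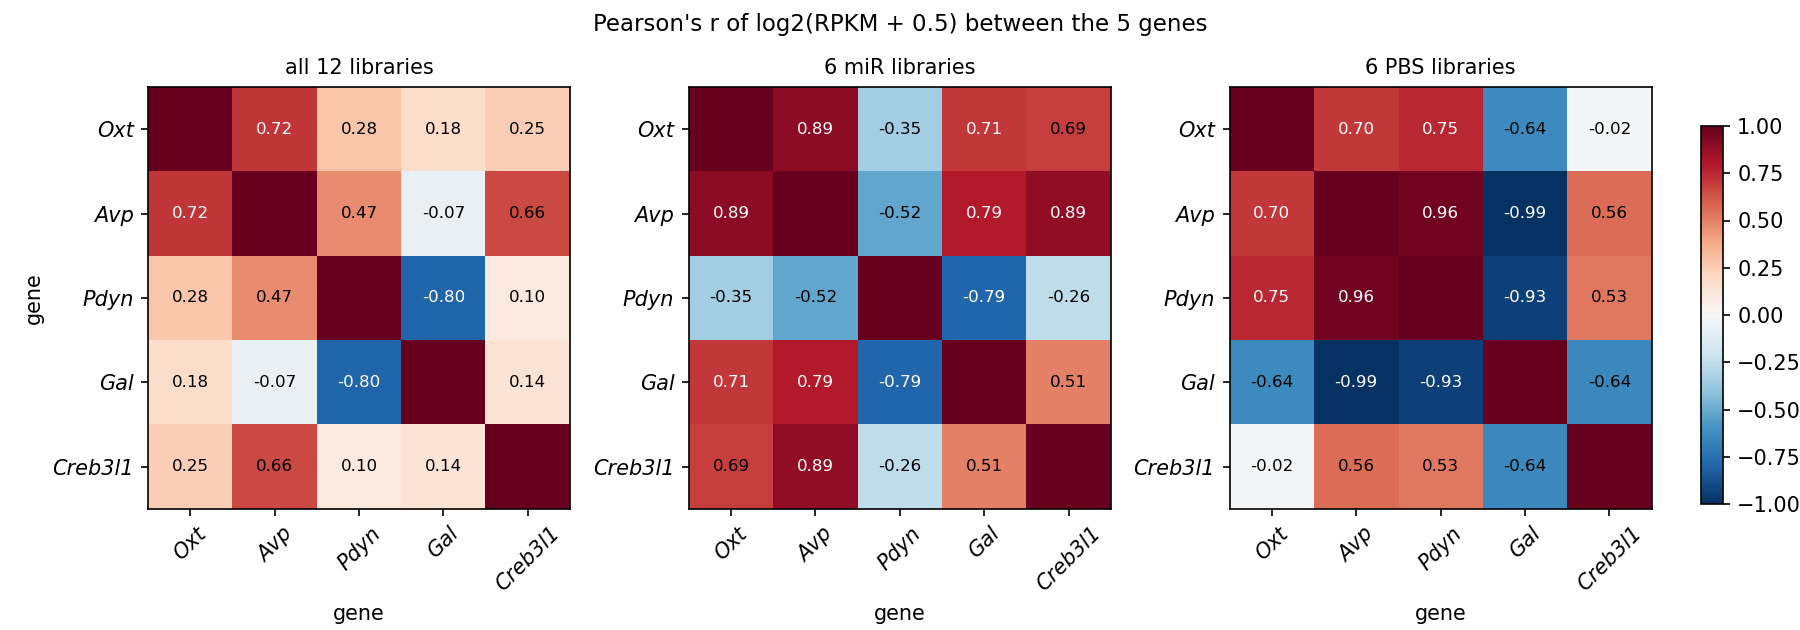
Pearson's r of log2(RPKM + 0.5) for the 10 pairs over all 12 libraries, within the 6 miR libraries and within the 6 PBS libraries, as cells coloured from -1 (blue) to 1 (red) with their values. Avp with Oxt is positive in all 3 panels, and Avp with Gal is positive in miR (0.79) and negative in PBS (-0.99).

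Among the other 13272 tested genes, those whose pattern over the 12 libraries was most like a gene's own are given as a description, since all points share the same libraries. Oxt was most like Otp (r = 0.94, rho 0.951, 0.94 in miR and 0.97 in PBS), the homeobox gene needed for the neurosecretory neurons of this nucleus. Otp was at 32.6, 18.7, 25.3, 24.6, 22.4 and 14.1 RPKM in miR replicates 1 to 6 and at 17.5, 22.9, 30.8, 15.9, 38.0 and 18.1 RPKM in PBS replicates 7 to 12. The libraries with the most and the least Oxt were thus near the top and bottom for Otp as well. Next came Ntn3 (0.89), which encodes a netrin, Msl3l2 (0.88), Lrrc24 (0.87) and Cxxc5 (0.87).

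Avp was most like Dap (r = 0.86), Spint2 (0.85), Fam159a (0.85), Snd1 (0.84) and Tceal5 (0.82). Crh, the corticotropin-releasing hormone gene of the smaller neurosecretory neurons, came 12th with r = 0.80. Its mean was 10.3 ± 1.32 RPKM in miR and 14.1 ± 5.12 in PBS (SD, n = 6 each).

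Pdyn was most like Nrg1 (r = 0.95), which encodes a neuregulin growth factor, Ptger4 (0.92), which encodes a prostaglandin E2 receptor, Tmem229b (0.91), Parva (0.91) and the AP-1 gene Fosl2 (0.905). Sim1, the other master regulator of these neurons beside Otp, came 48th at r = 0.81. Gal was most like Cenpb (0.94), Lamb3 (0.94), Gldn (0.93), 1110065P20Rik (0.92) and 6330406I15Rik (0.92), and its r with Sim1 was -0.71. Creb3l1 was most like Ramp2 (0.91), a partner of the calcitonin-like receptor, Dolpp1 (0.91), Cenpt (0.89), Dhodh (0.89) and Mospd3 (0.88).

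**Figure D5:**
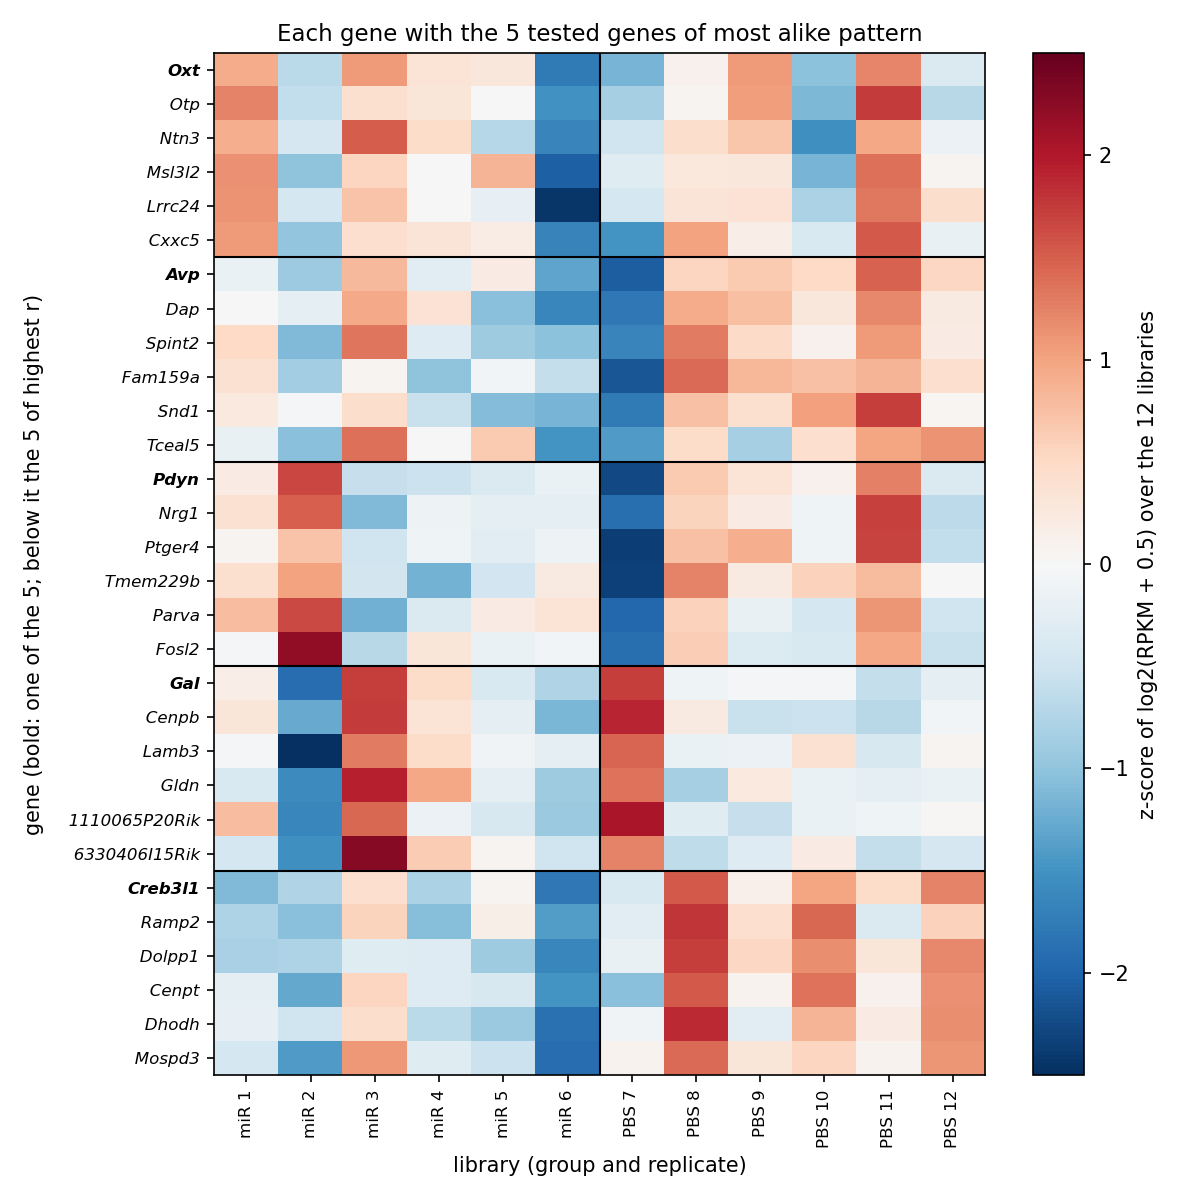
Each of the 5 genes (bold) above the 5 tested genes of highest r with it, in rows, over the 12 libraries, in columns; colour is the z-score of log2(RPKM + 0.5) over the libraries, from blue (low) to red (high). Otp follows Oxt (r = 0.94), and PBS replicate 7 is low for Avp and Pdyn with the genes like them and high for Gal with the genes like it.

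Markers of the nucleus and of neighbouring tissue were read in the same libraries. Sim1 (5.08 to 11.3 RPKM) and Otp (14.1 to 38.0 RPKM) were present in every library. With the level of Sim1 and Otp subtracted, r was 0.53 for Avp with Oxt (adjusted permutation p = 0.289) and -0.43 for Pdyn with Gal (adjusted permutation p = 0.321). For Gal with Creb3l1 it went from 0.14 to 0.64 (adjusted permutation p = 0.261). The same value was subtracted from both genes of a pair, which can itself change r, and Otp was the gene most like Oxt. These values therefore do not isolate the amount of the nucleus in a punch. Some markers of neighbouring tissue were uneven between libraries. Vip, a suprachiasmatic peptide gene, was at 21.7 RPKM in miR replicate 5 and at most 0.833 elsewhere. Pmch, of the lateral hypothalamus, was at 67.9 RPKM in miR replicate 2 and at most 3.74 elsewhere. Hcrt, also of the lateral hypothalamus, stayed at or below 0.354 RPKM. In miR replicate 2 it was at 0.068 RPKM, so it did not rise there with Pmch. Summed over their lists, suprachiasmatic markers ran from 18.5 to 57.8 RPKM in miR and 18.4 to 25.1 in PBS, lateral hypothalamic and arcuate peptides from 18.6 to 89.2 and 19.5 to 34.8, and thalamic markers from 145 to 387 and 181 to 307. Calb2, which is also among the genes that accompany the hormones, made up most of the thalamic sum. It was at 134 to 329 RPKM in miR and 168 to 259 in PBS. The thalamic sum therefore does not give the thalamic content of a punch: Tcf7l2 ran from 2.53 to 40.2 RPKM in miR and 4.19 to 28.1 in PBS. The part of neighbouring tissue in the member levels was not tested.

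Receptor genes for these peptides were low in the punches. Of 9 genes for the vasopressin, oxytocin, kappa opioid and galanin receptors and the peptidase that breaks down vasopressin and oxytocin, 5 reached 1 RPKM, 4 of them higher and 1 lower in miR. None passed the limma test, adjusted or unadjusted, and the median log2 difference was 0.17, against 0.01 over all tested genes. The peptidase gene Lnpep was at 17.5 ± 2.44 RPKM in miR and 15.0 ± 2.64 in PBS (limma adjusted p = 0.278), and the kappa receptor gene Oprk1 at 8.28 ± 0.933 and 7.34 ± 1.06 (adjusted p = 0.304). Of the vasopressin receptors only Avpr1a was measured above the minimum (1.68 ± 0.405 and 1.42 ± 0.382), and Oxtr was at 1.21 ± 0.165 and 1.27 ± 0.189 (SD, n = 6 in each group).

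Genes that cut and package the precursors were among the abundant messages. Of 12 genes of prohormone processing and granules, 8 were higher and 4 lower in miR (median 0.05, log2); none passed at the adjusted or the unadjusted threshold. Pcsk1, a convertase, was at 36.1 ± 3.91 RPKM in miR and 31.4 ± 7.47 in PBS, and Furin, a convertase of the Golgi, at 5.63 ± 0.670 and 6.35 ± 0.598. Scg2, a granule protein, was at 421 ± 25.0 and 394 ± 23.8 (SD, n = 6 in each group).

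A list of 14 genes around CREB3L1 held its relatives and the proteases that cut such factors. It also held genes that are neither, among them Sec23a, Hspa5 and Caprin2. Of the 14, 12 were tested, and 6 were higher and 6 lower in miR (median log2 difference 0.01). Sec23a, a coat protein of the vesicles that leave the endoplasmic reticulum, had the smallest p (32.8 ± 1.42 RPKM in miR, 29.5 ± 3.01 in PBS, limma adjusted p = 0.201) and was the only one with an unadjusted p under 0.05. Creb3l2, the closest relative, was at 4.23 ± 0.403 and 4.32 ± 1.05, and Mbtps1, the site-1 protease that cuts such factors, at 22.3 ± 0.678 and 22.6 ± 0.354 (SD, n = 6 in each group).

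The regulators of magnocellular development and the genes known to accompany the hormones did not pass either. Of 7 transcription factors, 4 were higher and 3 lower (median 0.01, none with an unadjusted p under 0.05), among them Sim1 (8.43 ± 1.30 RPKM in miR, 7.66 ± 2.24 in PBS) and Otp (22.9 ± 6.30 and 23.9 ± 8.79). Of 18 accompanying genes, 16 were tested, 6 higher and 10 lower (median -0.04). The smallest p values were those of Scgn (5.30 ± 0.599 RPKM in miR, 6.23 ± 0.784 in PBS, adjusted p = 0.220 by limma), a calcium sensor, and Nrgn (32.1 ± 7.60 and 45.3 ± 17.3, adjusted p = 0.245), a calmodulin-binding protein. Of 7 genes of the smaller paraventricular neurons, 4 were higher and 3 lower, with none past an unadjusted p of 0.05.

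Across the other marker lists no gene passed the limma test after adjustment. Pituicyte and glial markers (with endothelial genes among them) were higher for 9 of 11 genes, with a median of 0.19; at an unadjusted p under 0.05, which 20.2% of all tested genes passed, 4 were higher and 1, the endothelial Cldn5, was lower. Neuronal markers were higher for 3 of 5 tested (median 0.08), suprachiasmatic markers for 6 of 6 (0.28) and striatal markers for 3 of 5 (0.09). Lateral hypothalamic and arcuate peptides were lower for 3 of 5 (-0.06), thalamic markers for 7 of 7 (-0.11) and genes induced by neuronal activity for 6 of 7 (-0.21), where all medians are log2 differences of miR minus PBS.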

How the data were processed

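Stranded poly-A libraries were made from punches of 12 males and read on 2 lanes, per the labels. The authors deposited RPKM values for 30399 transcript rows; the submitters' processing notes name mm9 and edgeR, and their role is not given in the sources used here, nor are the aligner, read length or scaling inside RPKM. The row of highest mean was kept per gene. Depth, estimated from the steps between the lowest deposited values of olfactory receptor genes without introns, was 22.8 to 45.1 M reads in miR and 27.6 to 38.1 M in PBS.

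Values were tested on log2(RPKM + 0.5) with limma 3.58.1 (R 4.3.3, trended variance), miR against PBS, on the 13273 genes averaging 1 RPKM or more, with Benjamini-Hochberg adjustment. Fold changes on this scale understate changes of low genes. Single genes and ratios were also tested exactly over all 924 labelings of the 12 libraries, or 462 without PBS replicate 7 (two-sided, own code with numpy 2.4.6). These are the permutation p-values given for the group differences. Ranks and t quantiles came from scipy 1.17.1. Correlations of the 10 pairs used 100000 permutations, or all orders within a group. Scripts were tested on simulated data.

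Named genes were drawn from the 5 members, the 5 genes of highest r with each, the 3 of smallest p in each list, and fixed markers. The members and lists were chosen with earlier results of these data known. No columns were left out, and no 2 libraries held the same values.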

Additional observations from a re-analysis of the deposited data

Results flagged for a closer look

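Among 44 sets of 6 values examined (a gene or ratio in a group), 9 had an extreme library whose gap to its nearest neighbour was large for the range. For independent, normally distributed sets about 1 in 20, or 2.2, would be flagged. These sets share genes and libraries, so 9 against 2.2 does not measure an excess over chance. Pdyn in miR replicate 2 was at 45.75 RPKM, with the next miR library at 29.53. Gal in PBS replicate 7 was at 49.12 RPKM, with the next PBS library at 26.92. The same PBS replicate 7 stood apart in 3 log2 ratios that all contain this Gal value: Avp over Gal at 2.91, Gal over Creb3l1 at 4.19 and Pdyn over Gal at -1.76. For genes of neighbouring tissue, Vip stood out in miR replicate 5 at 21.72 RPKM and, at a far lower level, in PBS replicate 10 at 0.833 RPKM. Pmch stood out in miR replicate 2 at 67.88 RPKM. Meg3 in miR replicate 6 was at 68.1 RPKM, the highest of the miR group and below the 4 high PBS libraries.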

How the results depend on the processing

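Of the recomputed values, 555 kept their side of the threshold or stayed within 1.5 times the count. A change of sign short of the threshold was included among these. Of the others, 17 lost the threshold, 6 newly passed it and 17 were counts that moved further. The 17 that lost it were the 2 passing pairs, Avp with Oxt in 11 settings and Pdyn with Gal in 6. Creb3l1 passed with library weights (log2 difference -0.42, limma adjusted p = 0.00757) and without PBS replicates 7 and 11 (-0.37); leaving out single libraries gave -0.35 (miR replicate 3, adjusted p = 0.146) to -0.25 (miR replicate 6), and it passed without PBS replicate 7 (-0.35, adjusted p = 0.0466) but not without any other single library. Oxt changed sign in 9 settings, Pdyn in 5, Avp in 2 and Gal in 2, none past the threshold. No tested gene was called by limma over all libraries (2687 at an unadjusted p under 0.05); 3025 were with library weights, 3107 without PBS replicates 7 and 11, and 0 to 909 with single libraries left out (909 without PBS replicate 7, 429 without PBS replicate 11, 1 without miR replicate 3). The cause was not tested. Of the 10 pairs, 2 passed; 1 did with quantile normalization (Pdyn with Gal), 1 without PBS replicates 7 and 11 (Avp with Creb3l1, not among the 2), 1 without PBS replicates 8, 9, 10 and 12 (Avp with Oxt), 3 on residuals from the group means (the same 2 and Avp with Creb3l1), 0 with the level of Sim1 and Otp subtracted, and 0 without miR replicate 2 and PBS replicate 7 together, a setting chosen after seeing the data. With single libraries left out, 0 to 3 passed (3 without miR replicate 2, with Avp and Pdyn added, 0 without PBS replicate 7 or 11, 1 without miR replicate 3, 5 or 6 or PBS replicate 8 or 9). Avp with Oxt had r = 0.41 under quantile normalization (adjusted permutation p = 0.334). That setting gives the highest gene of each library the same value, and Oxt ranked 1st by mean. It thus flattens Oxt by construction (SE of its group difference 0.12, against 0.28 without it). For this reason it cannot show how stable the Oxt correlations or the sign of the Oxt difference are. No paired analysis was possible because the groups share no replicate numbers.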
